A study of Canis lupus familiaris with 28 samples.

Results

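The transcripts described here are those of the PIAS ligases and of the enzymes and modifiers of the SUMO pathway, measured in the blood of dogs with atopic dermatitis (AD). The genes were PIAS1, PIAS2, PIAS3, PIAS4, SUMO2, SUMO3, SAE1 and UBA2, and every probe whose array name equalled one of these symbols was taken. This rule found 19 probes for 7 of the 8 genes among the 43603 probes of a two-color Agilent canine array. No probe carried the name SUMO3, and its 2 probes were matched by their description, which brought the total to 21. RNA came from blood of 20 client-owned dogs with AD and 8 healthy blood donor dogs, with 1 array for each dog. All were adults, of various breeds and both sexes, and some of the AD dogs were crossbreeds. The labels name whole blood as the source, while the study's text speaks of RNA from peripheral blood nuclear cells. The AD dogs were sampled while signs of the disease were visible, and for at least some weeks before skin testing they had received no anti-inflammatory drugs. On every array the dog's RNA was labelled with Cy5 and a pool of RNA from other healthy dogs, the common reference, with Cy3. The labels give no breed, age or sex for single dogs, so these were not entered in any test.

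SUMO proteins are small modifiers that are attached to other proteins, many of them in the nucleus. SAE1 and UBA2 form the enzyme that activates SUMO, and ligases such as the PIAS proteins help to attach it to its target. PIAS proteins were first known as inhibitors of STAT transcription factors, PIAS3 of STAT3, so the family joins the SUMO pathway to cytokine signalling in leukocytes.

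Each probe is a strand of 60 bases, and its position is given in the files for the canFam3 build of the dog genome. The files do not state exons, introns or UTRs. The 5 PIAS1 probes lie on chromosome 30, on the plus strand. The brightest of them, A_11_P205093, spans positions 32220348 to 32221644, which is 1297 bases of genome for 60 bases of probe, so that its ends lie in separate stretches of the gene. The sequences below are of probes chosen by hand, and the UBA2 probe among them is not the brightest of its gene. They give the brightest PIAS1 probe, the PIAS1 probe nearest to the start of the transcript, and a probe for each of 5 other genes.
PIAS1 A_11_P205093: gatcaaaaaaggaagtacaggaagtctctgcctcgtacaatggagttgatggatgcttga
PIAS1 A_11_P179918: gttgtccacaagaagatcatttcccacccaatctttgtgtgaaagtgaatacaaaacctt
PIAS2 A_11_P099886: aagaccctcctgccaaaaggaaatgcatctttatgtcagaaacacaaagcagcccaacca
PIAS3 A_11_P0000027488: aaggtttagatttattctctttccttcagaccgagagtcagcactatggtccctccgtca
PIAS4 A_11_P077116: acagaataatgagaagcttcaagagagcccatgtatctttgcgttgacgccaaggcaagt
SAE1 A_11_P112906: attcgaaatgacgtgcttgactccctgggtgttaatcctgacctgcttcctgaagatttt
UBA2 A_11_P0000022003: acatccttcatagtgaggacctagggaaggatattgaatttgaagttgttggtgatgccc
PIAS1 probe A_11_P179918 lies at positions 32190432 to 32190491 of chromosome 30. The PIAS2 probe lies on chromosome 7, at 44525850 to 44525909. The PIAS3 probe spans 58651953 to 58652773 of chromosome 17, on the minus strand, and PIAS4 has its probe at 55536972 to 55537031 of chromosome 20. SAE1 and UBA2 are both on chromosome 1, both on the minus strand, with the printed SAE1 probe at 108776910 to 108776969 and the printed UBA2 probe spanning 117845991 to 117847720.

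The values are log2 ratios of the dog's signal to that of the common reference, centered on the median of each array. A signal filter kept 30202 probes, and 19 of the 21 probes of the 8 genes passed it. The only PIAS3 probe and the PIAS2 probe A_11_P162078 did not. There were 8 slides and 5 scan days for the 28 arrays, and no slide or scan day held dogs of both groups, so that slide, scan day and disease cannot be told apart. The dog's signal stood well above background at 51.7% to 87.5% of probes in AD dogs, and at 84.3% to 90.3% in healthy dogs. In 6 lists of blood cell markers, measured beside the genes, 0 of the 28 genes with a tested probe had an unadjusted p under 0.05 between the groups in limma. Of all probes tested, 6.12% reached that level. By flow cytometry the study reported smaller shares of T and B cells among lymphocytes of AD dogs. It reported larger shares of CD8+ T cells and of regulatory T cells.

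PIAS1, a ligase of this family, was lower in AD than in healthy dogs by its brightest probe before adjustment, and no other probe of the 8 genes had an unadjusted p under 0.05, a level that 6.12% of all probes tested reached, 4.46% with a lower value in AD dogs. The log2 ratio of this probe was between -0.95 and 0.25 in AD dogs, with a median of -0.19. In healthy dogs it was between -0.21 and 0.35, with a median of 0.15. The ranges overlapped, and 19 of the 20 AD dogs lay below the mean of healthy dogs. The AD dogs had a mean of -0.27 ± 0.31 (SD, n = 20), against 0.14 ± 0.18 (SD, n = 8) for healthy dogs. AD minus healthy dogs, the log2 fold change, came to -0.41 (standard error, SE, 0.125, 95% interval -0.67 to -0.15), and limma gave an unadjusted p of 0.00266 and an adjusted p of 0.490. From these same arrays the study had called PIAS1 lower in AD dogs, at a limma adjusted p of 0.085. The difference found here is therefore no independent evidence of its direction. The study's signal filter left fewer transcripts than the 30202 probes tested here, so the adjusted p-values are not over the same set. At that threshold the study called a set of transcripts, and 0 probes were called here. The study also reported lower PIAS1 expression in AD dogs by real-time PCR, an assay that was not examined here. All but the last base of its forward primer matches the end of the printed A_11_P205093 sequence. That assay therefore starts within the stretch of this probe, and whether it reaches those of the other PIAS1 probes was not examined.

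The other 4 PIAS1 probes had unadjusted p of 0.202 to 0.736 in limma, and 3 of them had higher means in AD dogs. Their log2 fold changes were 0.11 (SE 0.105) for A_11_P184433, 0.06 (0.109) for A_11_P0000023543, 0.21 (0.164) for A_11_P000004741 and -0.08 (0.228) for A_11_P179918. Between 5 and 11 of the 20 AD dogs lay below the healthy mean for these probes. A_11_P184433 and A_11_P0000023543 share 57 of their 60 bases, so they count as nearly 1 measurement. With the mean of all 5 probes in place of the brightest, the log2 fold change of PIAS1 was -0.02 (SE 0.112). The brightest PIAS1 probe minus the mean of the others was -0.34 ± 0.44 (SD, n = 20) for AD dogs, against 0.15 ± 0.14 (SD, n = 8) for healthy dogs. The groups thus differed by -0.49 (SE 0.156), with an unadjusted p of 0.00426 and an adjusted p of 0.629 in limma over the 4606 genes with at least 2 probes tested. Among these genes 6.12% had an unadjusted p under 0.05 in the same comparison.

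**Figure D1:**
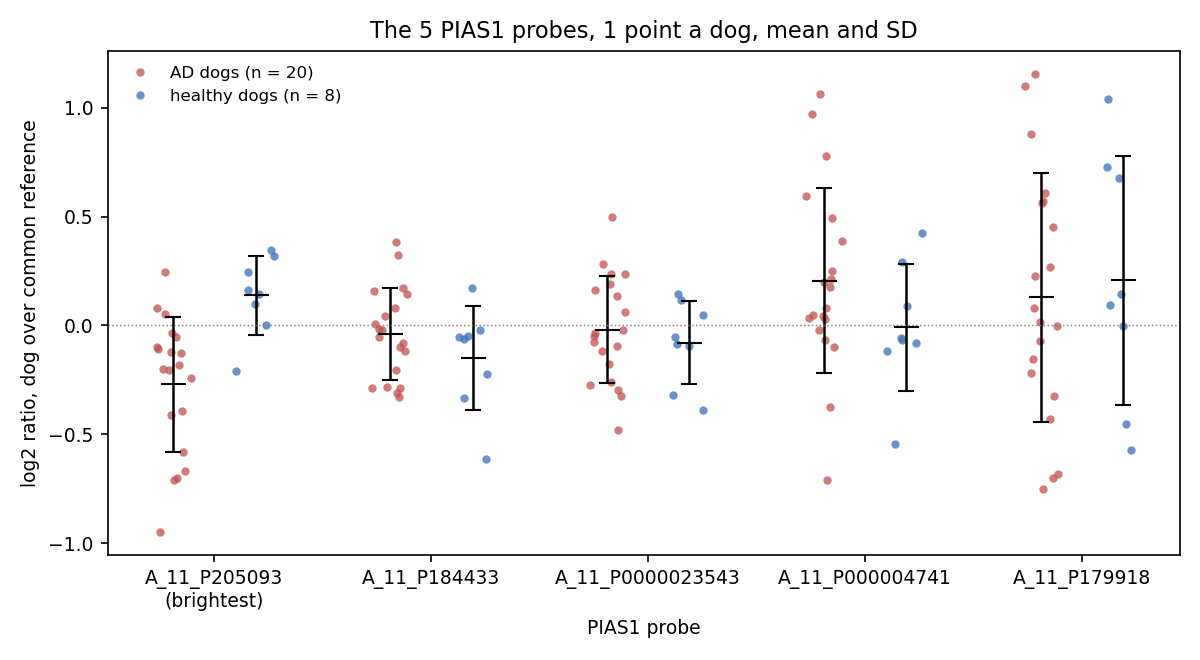
Log2 ratio of dog to common reference (vertical axis) for each of the 5 PIAS1 probes (horizontal axis), with 1 point for each AD dog (red, n = 20) and healthy dog (blue, n = 8). Black bars are the mean and SD. The brightest probe lies lower in AD dogs (mean -0.27 against 0.14), and the other probes overlap throughout.

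The ratio was also taken apart into its channels, each quantile normalized between arrays. In the dog's channel alone, the brightest PIAS1 probe was lower on arrays of AD dogs by -0.74 on the log2 scale, with a limma adjusted p of 0.00582. The other 4 PIAS1 probes were higher there on arrays of AD dogs, by 0.02 to 0.25, with limma adjusted p of at least 0.24. By this measure 4.14% of all 30202 probes passed an adjusted p of 0.085, and of the 19 probes of the 8 genes only the brightest PIAS1 probe did. The reference channel, which held the same RNA on every array, was lower at this probe as well, by -0.29, with a limma adjusted p of 0.0044. In that channel 39.1% of all probes passed, and 9 of the 19. The share was 63.2% of all probes when the reference channel was centered on the array median instead. The part of slide, scan or labelling in the PIAS1 difference was not tested, since no slide held both groups.

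**Figure D2:**
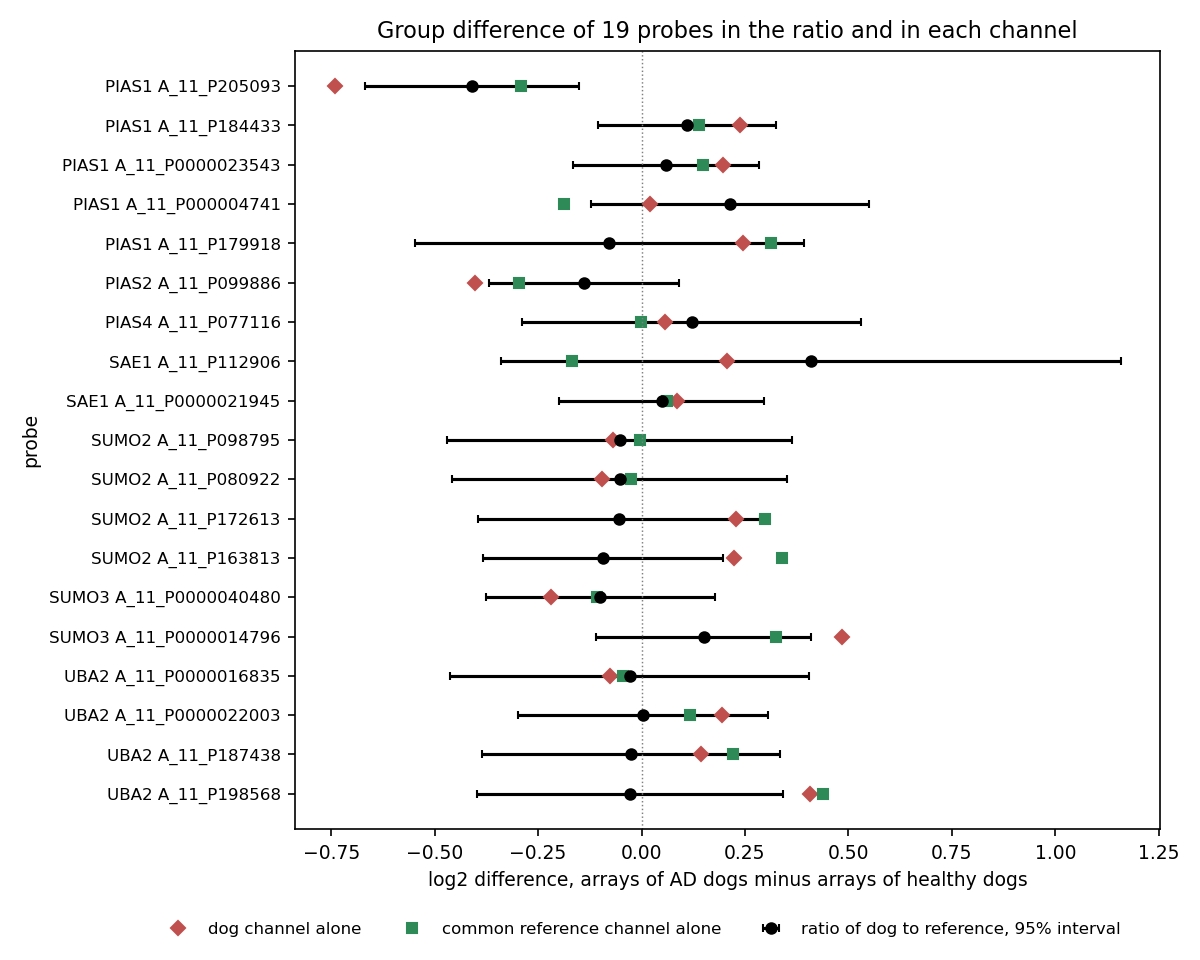
Difference between arrays of AD dogs and of healthy dogs on the log2 scale (horizontal axis) for the 19 probes that passed the signal filter (vertical axis). Black points with bars are the ratio of dog to common reference with its 95% interval, red diamonds the dog's channel alone and green squares the common reference alone. The interval of the brightest PIAS1 probe, A_11_P205093, is the only one that leaves out 0, and its reference channel is lower as well.

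PIAS2 and PIAS4 are ligases of the same family, and both were measured by 1 probe that passed the filter. The PIAS2 probe A_11_P099886 ranged from -0.52 to 0.41 in AD dogs (median -0.18) and from -0.26 to 0.50 in healthy dogs (median 0.01). Its log2 fold change was -0.14 (SE 0.112, adjusted p = 0.870 in limma), and 15 of the 20 AD dogs lay below the healthy mean. In the common reference alone this probe was lower on AD arrays by -0.30. The PIAS4 probe ranged from -1.49 to 1.50 in AD dogs (median 0.19) and from -0.29 to 0.33 in healthy dogs (median 0.14). The ends of the AD range were AD dogs 20 and 19, both on slide 8, and the next lowest AD value was -0.11. Only through AD dog 20 did the healthy dogs all lie inside the AD range. The log2 fold change of PIAS4 was 0.12 (SE 0.2, adjusted p = 0.922 in limma), with a 95% interval from -0.29 to 0.53. It was 0.12 (SE 0.121) without slide 8 and 0.04 (SE 0.037) with normexp and loess. The dog's signal for PIAS4 was well above background on 26 of the 28 arrays, and the reference signal on 22. PIAS3, the inhibitor of STAT3, had 1 probe, whose dog signal was well above background on 22 of the 28 arrays and whose reference signal was so on 17. Its log2 ratio ranged from -2.09 to 1.60 in AD dogs (median 0.24) and from -0.05 to 1.12 in healthy dogs (median 0.13). As it lay under the signal limit, it was not tested. Without the filter its log2 fold change was 0.03 (SE 0.274).

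The enzyme that activates SUMO is a pair of SAE1 and UBA2. The brightest SAE1 probe, A_11_P112906, had the widest spread of the 7 genes' brightest probes tested. It ranged from -1.60 to 1.77 in AD dogs (median 0.23) and from -1.27 to 1.27 in healthy dogs (median -0.04). Its log2 fold change of 0.41 was of the size of the PIAS1 difference, but the SE was 0.364 and the adjusted p from limma 0.872, with 6 of the 20 AD dogs below the healthy mean. The other SAE1 probe, A_11_P0000021945, was between -0.68 and 0.60 in AD dogs and had a log2 fold change of 0.05 (SE 0.12). The brightest UBA2 probe, A_11_P0000016835, ranged from -1.03 to 0.87 in AD dogs (median 0.03) and from -0.58 to 0.49 in healthy dogs (median -0.003). Its log2 fold change was -0.03 (SE 0.211, 95% interval -0.46 to 0.40). The other 3 UBA2 probes were between -0.03 and 0.003 in log2 fold change, so that all 4 were close to 0 with SEs of 0.146 to 0.211.

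SUMO2 and SUMO3 encode modifiers of nearly the same sequence. The brightest SUMO2 probe, A_11_P098795, ranged from -1.07 to 0.74 in AD dogs (median -0.14) and from -0.62 to 0.26 in healthy dogs (median -0.03). All 4 SUMO2 probes had log2 fold changes between -0.09 and -0.05, with SEs of 0.141 to 0.203. The healthy dogs lay within the range of the AD dogs for the brightest probe. For SUMO3, the brighter probe A_11_P0000040480 ranged from -0.67 to 0.43 in AD dogs and from -0.53 to 0.27 in healthy dogs, with a log2 fold change of -0.10 (SE 0.134). The other SUMO3 probe, A_11_P0000014796, had a log2 fold change of 0.15 (SE 0.126), so the 2 probes differed in sign, and both 95% intervals held 0.

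**Figure D3:**
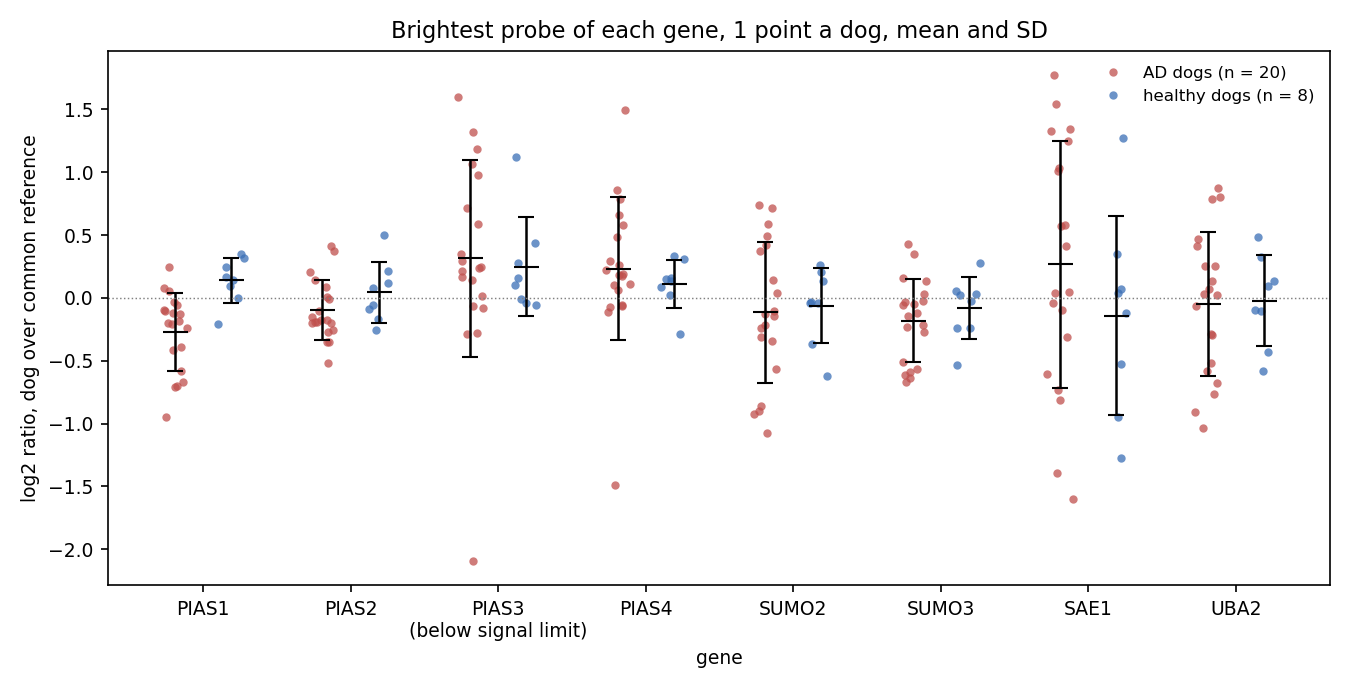
Log2 ratio of dog to common reference (vertical axis) for the brightest probe of each of the 8 genes (horizontal axis), with 1 point for each AD dog (red, n = 20) and healthy dog (blue, n = 8). Black bars are the mean and SD, and PIAS3 lay under the signal limit and was not tested. The groups overlap for every gene, and SAE1 has the widest spread of the probes tested, from -1.60 to 1.77 in AD dogs.

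Over all 30202 probes tested, limma called 0 (0%) at an adjusted p of at most 0.085, with a smallest adjusted p of 0.490. An unadjusted p under 0.05 was reached by 1847 probes (6.12%), with 1348 lower in AD dogs (4.46% of those tested) and 499 higher (1.65%). Of the 19 probes of the 8 genes it was reached by 1, the brightest PIAS1 probe. The median log2 fold change of the 19 probes was -0.03, against -0.01 for all probes tested. Of the 19, 11 were negative, and of all probes 52.1%.

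Other genes of the pathway were taken from a list of 29, of which 21 had a probe by name, all above the signal limit. They include the proteases SENP1, SENP2, SENP3, SENP5 and SENP8 that remove SUMO, and further ligases and targets. The log2 fold changes of the 21 genes ran from -0.15 to 0.37 with a median of 0.05, and 6 were negative. In limma, where 6.12% of all probes tested had an unadjusted p under 0.05, 1 of the 21 did. This was PML, the scaffold of nuclear bodies and a well known target of SUMO, at 0.56 ± 0.42 (SD, n = 20) for AD dogs, against 0.19 ± 0.25 (SD, n = 8) for healthy dogs. Its log2 fold change was 0.37 (SE 0.159, adjusted p = 0.700 in limma), and 2 of the 20 AD dogs lay below the healthy mean. The other PML probe had a log2 fold change of -0.01. Of 11 genes of the JAK and STAT families, 7 had a probe by name and none had an unadjusted p under 0.05, beside 6.12% of all probes. Their log2 fold changes ran from -0.26 (STAT2) to 0.22 (STAT6), and STAT3, the partner of PIAS3, was at -0.03 (SE 0.155).

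Probes of 1 gene differed in how closely they followed each other from dog to dog. For this, the brightest probe was correlated with each other probe of its gene within each group, 24 relations in all, with Benjamini-Hochberg adjustment over them. In AD dogs SUMO2 gave the closest relation. Its brightest probe had Pearson's r of 0.833 to 0.994 and Spearman's rho of 0.841 to 0.985 with the other 3, each with a permutation p of 2e-05, the smallest that 100000 permutations can give, and an adjusted p of 0.00016. The highest of these values joins A_11_P098795 and A_11_P080922, which share 23 bases. In healthy dogs this pair had r = 0.998 (exact permutation p = 4.96e-05, adjusted p = 0.000298), while A_11_P172613 and A_11_P163813 missed adjustment with r of 0.783 and 0.62 (exact permutation p = 0.0441 and 0.0766, adjusted p = 0.106 and 0.153), which fell to 0.069 and -0.01 without the 2 farthest dogs. For UBA2 in AD dogs r was 0.362 to 0.625, and only the relation with A_11_P0000022003 passed adjustment (rho 0.638, permutation p = 0.00318 for r and 0.0027 for rho, adjusted p = 0.0153 and 0.013). Across the genes with at least 2 probes, the median r between the brightest probe and the others was 0.509 in AD dogs, which is given as a description.

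In AD dogs the brightest PIAS1 probe had no relation past adjustment with any other PIAS1 probe. Pearson's r was -0.315 with A_11_P184433 (Spearman's rho -0.286), -0.459 with A_11_P0000023543 (rho -0.445), 0.197 with A_11_P000004741 (rho 0.331) and 0.181 with A_11_P179918 (rho 0.254). The permutation p of r was 0.178, 0.0433, 0.408 and 0.444 in this order, and that of rho 0.219, 0.0503, 0.156 and 0.276. The adjusted p was at least 0.106 for r and at least 0.134 for rho. Among themselves, the other 4 probes correlated with r of 0.409 to 0.905 in AD dogs and of -0.24 to 0.849 in healthy dogs, where A_11_P000004741 was negative against each of the 3 others. The median r of the brightest PIAS1 probe with the others was -0.07, and 12.9% of the genes with at least 2 probes were at or below it. In healthy dogs r was 0.837 with A_11_P184433 (rho 0.857), with an exact permutation p of 0.0204 for r and 0.0107 for rho (adjusted p = 0.0613 and 0.0367). Without the 2 dogs farthest from the median this r was 0.602. The values for the other 3 probes in healthy dogs were 0.62, 0.236 and 0.413. Within the scan days that held at least 6 AD dogs, r with A_11_P184433 was -0.65 on day 4 and 0.293 on day 5, and r with A_11_P0000023543 was -0.50 and -0.11. In the dog's channel alone, without the reference, r in AD dogs was -0.319 and -0.356 for these probes, and in healthy dogs 0.406 for both. The difference in r between the groups was not tested.

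The SAE1 probes moved in opposite directions among AD dogs. Pearson's r was -0.58 (permutation p = 0.00474, adjusted p = 0.019) and Spearman's rho -0.60 (permutation p = 0.00612, adjusted p = 0.0245) over 20 AD dogs. Leaving out the 2 dogs farthest from the median, r was -0.51, on scan days 4 and 5 alone it was -0.70 and -0.65, and with the mean of each slide removed -0.45. In healthy dogs r was 0.01 (exact permutation p = 0.962) and rho 0.05 (exact permutation p = 0.935), but r was -0.56 once the 2 farthest dogs were left out, so that the gap between the groups rested on those healthy dogs. In the dog's channel alone r was -0.63 in AD dogs. The brightest SAE1 probe lies at 108776910 to 108776969 of chromosome 1 and the other at 108758312 to 108758371, both on the minus strand. For the 2 SUMO3 probes r was 0.187 in AD dogs (rho 0.26, permutation p = 0.438 and 0.269). In the dog's channel alone they did follow each other in AD dogs, with r = 0.544 (permutation p = 0.0129, adjusted p = 0.0387) and rho = 0.568 (permutation p = 0.00972, adjusted p = 0.0389). In healthy dogs it was 0.875 (rho 0.524, exact permutation p = 0.0112 and 0.197), and 0.208 once the 2 farthest dogs were left out, so that the relation rested on those dogs.

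**Figure D4:**
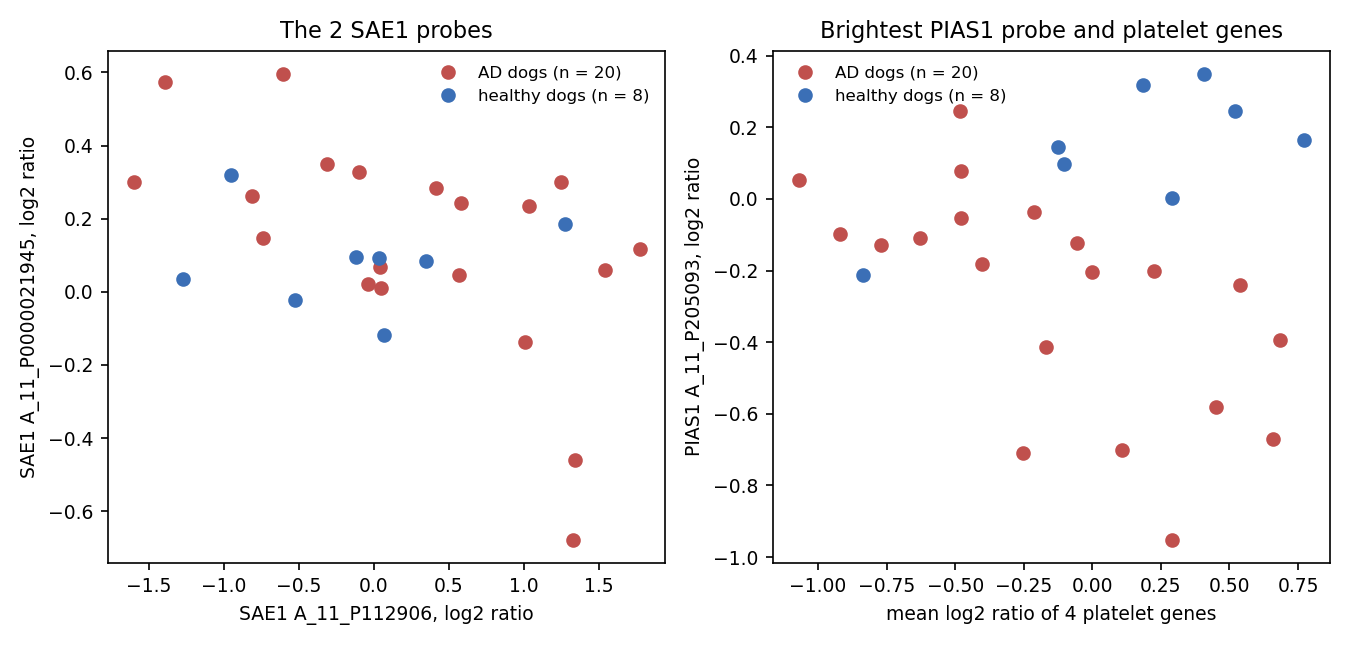
Left, log2 ratio of the brightest SAE1 probe (horizontal axis) and of the other SAE1 probe (vertical axis), and right, mean log2 ratio of 4 platelet genes (horizontal axis) and log2 ratio of the brightest PIAS1 probe (vertical axis). Each point is 1 AD dog (red, n = 20) or healthy dog (blue, n = 8). In AD dogs r is -0.58 on the left and -0.62 on the right, and in healthy dogs 0.01 and 0.713. Without the 2 dogs farthest from the median of the horizontal axis, r is -0.51 and -0.61 in AD dogs, and -0.56 and 0.415 in healthy dogs.

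The correlation of the other genes with PIAS1 was computed between brightest probes, within each group. As PIAS3 had no tested probe, 6 genes in 2 groups gave 12 relations, and none passed an adjusted p of 0.05. In AD dogs Pearson's r was -0.18 for PIAS2, -0.20 for PIAS4, 0.264 for SUMO2, 0.154 for SUMO3, -0.09 for SAE1 and 0.112 for UBA2. Spearman's rho was -0.09, -0.04, 0.215, 0.266, -0.09 and 0.122 in the same order. The permutation p of these was at least 0.255, and the adjusted p at least 0.764. Without the 2 dogs farthest from the median PIAS1 value, r in AD dogs lay between -0.33 (PIAS4) and 0.325 (SUMO2). On scan day 4 r ran from -0.58 (SAE1) to 0.421 (SUMO2) and on scan day 5 from -0.60 (PIAS4) to 0.772 (PIAS2), each over 6 AD dogs.

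In healthy dogs the strongest relations were with SUMO3 and SAE1. Neither passed adjustment. SUMO3 was higher in dogs with a higher PIAS1 value, with r = 0.871 (exact permutation p = 0.011, adjusted p = 0.132) and rho = 0.69 (exact permutation p = 0.0694, adjusted p = 0.416) over 8 dogs. SAE1 ran against PIAS1, with r = -0.79 (exact permutation p = 0.0271, adjusted p = 0.163) and rho = -0.76 (exact permutation p = 0.0368, adjusted p = 0.416). Without the 2 dogs farthest from the median, r was 0.502 for SUMO3 and -0.77 for SAE1. The other 4 relations in healthy dogs had r between -0.51 (SUMO2) and 0.01 (PIAS4), with exact permutation p of at least 0.153. Some of these moved with single dogs. Without healthy dog 5, r went from -0.06 to -0.72 for PIAS2 and from -0.51 to -0.28 for SUMO2, and without the 2 dogs farthest from the median to -0.775 and -0.13. All healthy dogs were scanned on 1 day. The difference between AD and healthy dogs in these relations was not tested.

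**Figure D5:**
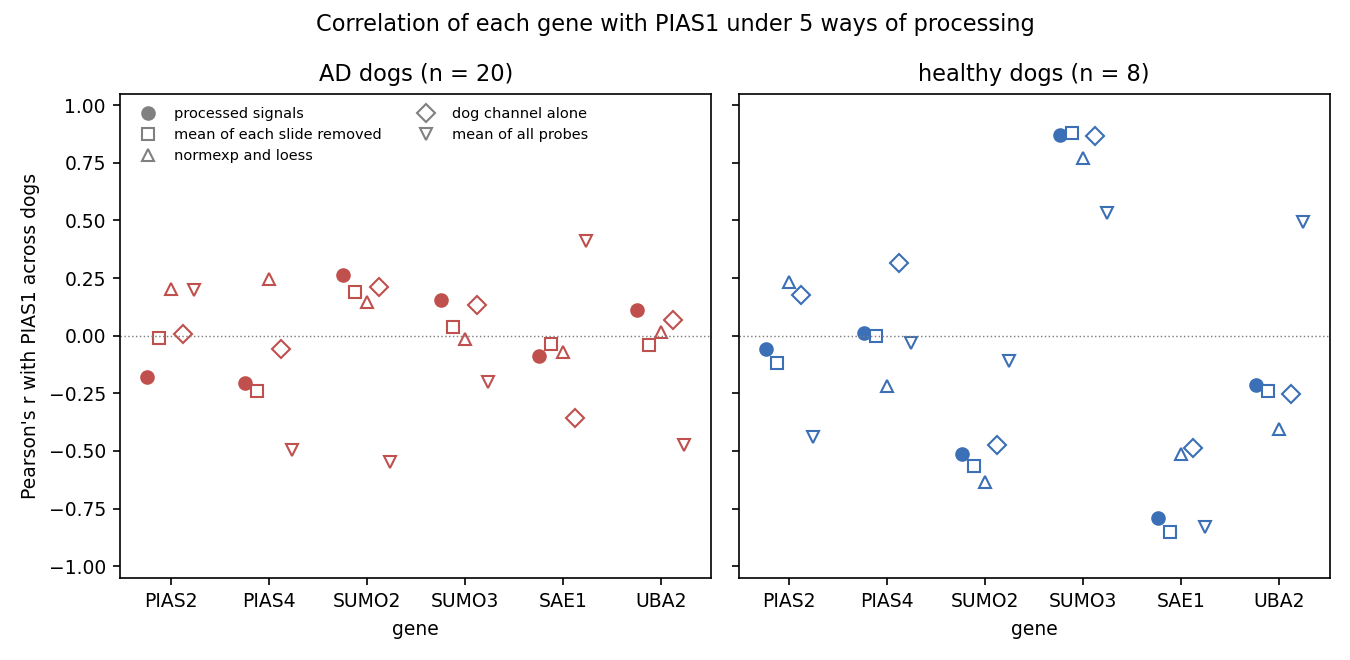
Pearson's r with PIAS1 across dogs (vertical axis) for 6 genes (horizontal axis), in AD dogs (left, n = 20) and healthy dogs (right, n = 8). Filled circles use the brightest probes and the processed signals, and open symbols are 4 other ways of processing. In AD dogs each of the 6 genes changes sign between ways of processing, while in healthy dogs SUMO3 stays above 0, from 0.531 to 0.878, and SUMO2 and SAE1 below 0.

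The probes most like the brightest PIAS1 probe were sought among the 30201 others tested. The measure was Pearson's r over the 28 arrays with the mean of each group removed. The 5 genes with a symbol and the highest values were EMC1 (0.915), SREBF1 (0.910), KCNA5 (0.903), MAN1A2 (0.900) and GTPBP3 (0.899). These values are descriptions, and the probes share arrays and slides. Of all probes tested, 3.17% were brighter than the brightest PIAS1 probe. The median dog signal was 2880 for EMC1 and 11500 to 35100 for the others. The part of shared high signal in these values was not tested. Each of the 5 also had a negative log2 fold change, between -0.44 (EMC1) and -0.33 (GTPBP3 and SREBF1), with unadjusted p of 0.00248 to 0.0173 and adjusted p of at least 0.490 in limma. Over all probes, r with PIAS1 had a median of -0.0047 and ran from -0.38 at the 5th percentile to 0.496 at the 95th. No other probe of the 8 genes stood near the top, as the best ranked of them, a SUMO2 probe, was at place 4586. The other PIAS1 probes were at places 7122 to 27001, with r of -0.302 to 0.218. The list therefore describes the brightest PIAS1 probe and not all probes of the gene.

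Of the blood cell lists, the platelet genes had the closest relation with PIAS1 in AD dogs, which passed adjustment by Spearman's rho and missed it by Pearson's r. The list holds PPBP, ITGA2B, GP9 and GP1BA, with PF4 not found by name. Its mean log2 ratio ranged from -1.07 to 0.68 in AD dogs (mean -0.15) and from -0.84 to 0.77 in healthy dogs (mean 0.14), and all 4 genes had negative log2 fold changes, from -0.49 to -0.07, none with an unadjusted p under 0.05. In AD dogs a higher platelet level went with a lower PIAS1 ratio, with r = -0.62 (permutation p = 0.00384, adjusted p = 0.0538) and rho = -0.70 (permutation p = 0.00086, adjusted p = 0.012), the adjustment being over 14 relations. Without the 2 dogs farthest from the median platelet level r was -0.61, on scan days 4 and 5 alone -0.24 and -0.70, and with the mean of each slide removed -0.62. In healthy dogs the sign was opposite, with r = 0.713 (exact permutation p = 0.0739, adjusted p = 0.21) and rho = 0.571 (exact permutation p = 0.151, adjusted p = 0.353), and r was 0.415 without the 2 farthest dogs. The PIAS1 probes A_11_P184433 and A_11_P0000023543 ran the other way in AD dogs, with r of 0.392 and 0.52 with the same list, and they share most of their bases. The other probes, A_11_P000004741 and A_11_P179918, had r of -0.25 and -0.03. The part of blood cell makeup in the PIAS1 difference was not tested, and in RNA from blood fewer cells of a type and less RNA per cell cannot be told apart.

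The other lists gave no relation with PIAS1 past an adjusted p of 0.05. For erythroid genes in healthy dogs r was -0.80 (exact permutation p = 0.0116, adjusted p = 0.0809) and rho -0.81 (exact permutation p = 0.0218, adjusted p = 0.152), and r was -0.59 without the 2 dogs farthest from the median. In AD dogs it was -0.09 (permutation p = 0.702). For T cell genes r was 0.02 in AD dogs (permutation p = 0.946) and for neutrophil genes -0.30 (permutation p = 0.203). In healthy dogs T cell genes had r = -0.68 (exact permutation p = 0.0751, adjusted p = 0.21), which was -0.02 without the 2 farthest dogs. For monocyte genes there r was 0.563 (exact permutation p = 0.069, adjusted p = 0.21), or 0.359 without them. The share of probes with a dog signal well above background had r of -0.02 with PIAS1 in AD dogs (permutation p = 0.952). With the mean of each slide removed this r was 0.46, and it was 0.734 on scan day 4 and -0.28 on scan day 5. Without the 6 AD arrays of scan day 5, the day with the lowest mean share, the log2 fold change of PIAS1 was -0.47 (SE 0.127).

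Within AD dogs the slides were compared with a moderated F test of limma. It passed an adjusted p of 0.085 at 5.28% of all probes and at 0 of the 19 probes of the 8 genes, of which 5 had an unadjusted p under 0.05, a level that 16.5% of all probes reached. The lowest was that of PIAS1 probe A_11_P179918 (unadjusted p = 0.00652, adjusted p = 0.108), whose slide means ran from -0.53 to 0.67. For the brightest PIAS1 probe the slide means of AD dogs lay between -0.41 and -0.02, with an unadjusted p of 0.748 and an adjusted p of 0.873, and every one of the 6 slides was below the healthy mean of 0.14. As 19 of the 20 AD dogs lay below that mean, the slide means add little to this. The F test covers AD slides only, so the part of slide in the group difference was not tested.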

How the data were processed

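RNA from blood of 20 AD and 8 healthy dogs, grouped by the labels, was hybridized with a common reference to two-color arrays. The deposited values used are spot intensities of both channels on a linear scale, which the authors made with Feature Extraction of Agilent (10.7.3.1 per the labels, 10.10.1.1 per the file headers) by background subtraction and Lowess dye normalization. The authors' series-wide values are log10 ratios of Cy5 to Cy3, used as an alternative. They equalled the log10 ratios in the scanner files within 0.001 for 100% of spots that are not controls.

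The processed intensities were turned into log2 ratios with R 4.3.3 and limma 3.58.1. Control spots were left out (43803 spots and 43603 probes remained). Spots marked as outliers in a channel were not used, and repeated spots of a probe were averaged. A probe was kept where it was well above background on some array and at least 1 of 4 medians of the processed signal (2 channels, 2 groups) exceeded 100. Arrays were centered on the median of the probes kept. For every such probe lmFit and eBayes gave the difference between the groups, adjusted by Benjamini-Hochberg over all 30202 probes, at the threshold of 0.085 that the study's results name. The count at 0.05 was 0 as well.

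A gene is represented by its brightest probe, that is, by the highest signal averaged over both channels of the 28 arrays. Correlations used SciPy 1.17.1 with two-sided permutation tests, 100000 permutations in AD dogs and all 40320 pairings in healthy dogs. Genes named are the 8 members with all their probes, genes of the SUMO and JAK-STAT lists with an unadjusted p under 0.05 (STAT2, STAT3, STAT6 and the SENP genes were added after their values were seen, and some genes of these lists are not reported here), and the 5 genes with a symbol most like PIAS1. The members and lists were chosen with earlier results of these data known. P-values rest on the spread between dogs, each sampled once on 1 array. This spread also holds that of labelling, slide and scan. Slide and scan day differences between the groups are not counted in it, as no slide or scan day held both. The limma fit was tried on simulated data with larger differences than that of PIAS1 and without slide or scan day effects. That trial therefore does not bear on either of these. Sequences and canFam3 positions are those of the scanner files, and figures were drawn with matplotlib 3.10.9.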

Additional observations from a re-analysis of the deposited data

Results flagged for a closer look

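Of 21 probes, 2 had a healthy dog far from the other 7, both times healthy dog 5. At PIAS3 probe A_11_P0000027488, under the signal limit, this dog was at a log2 ratio of 1.12, the next at 0.43 and the lowest at -0.05. At SUMO2 probe A_11_P172613 it was at -0.74, the next at -0.17 and the highest at 0.33. Chance flags about 1 in 20 such groups. The groups of 20 AD dogs were not tested in this way.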

How the results depend on the processing

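The PIAS1 difference kept its direction under all 24 alternatives and passed the threshold in 2 of them, at -0.74 in the dog's channel (adjusted p = 0.00582) and at -0.42 when limma weighted the arrays (adjusted p = 0.0571). Over all of them its adjusted p lay between 0.00582 and 0.996, and with the mean of all probes its value was -0.02. SAE1 kept its direction under the same 24 and PIAS4 under the 23 that gave it a value (not with all 4 medians over 100), and no other gene passed. The direction of SUMO3 turned with the mean of all probes (0.025) and that of UBA2 with normexp and loess (0.036). With each slide left out in turn, the log2 fold change of PIAS2 ran from -0.28 to 0.0017, that of SUMO2 from -0.20 to 0.090 that of UBA2 from -0.26 to 0.20 and that of SAE1 from 0.18 to 0.64. The number of probes called went from 0 to 3 without the signal filter, 1251 with the dog's channel alone and 849 with array weights. With slide as a random block no probe was called, and the adjusted p of PIAS1 was 0.996. The probes of the 8 genes with an unadjusted p under 0.05 went from 1 to 4 of 19 with the dog's channel alone, where 19.5% of all probes were under it, and from 1 to 2 with slides left out (2 without slide 5, with 9.2% of all probes). All probes stood at 6.12% before. In the common reference alone 11807 probes were called, and 19078 after centering on the array median.

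The dog numbers do not pair the groups, since r between dogs of the same number ran from -0.36 to 0.425 and 1 of 8 healthy dogs was closest to its own number. A fit with the dog number as a block rests on the 8 AD dogs that share a number with a healthy dog. The other AD dogs add nothing to its group difference. With the dog number as a replicate block 0 probes were called and 5 probes of the 8 genes had an unadjusted p under 0.05, as had 17.1% of all probes, with log2 fold changes of the brightest probes of -0.43 (PIAS1), -0.41 (SUMO2), -0.34 (UBA2), -0.27 (SUMO3), -0.08 (PIAS2), 0.09 (PIAS4) and 0.53 (SAE1).

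No correlation with PIAS1 passed an adjusted p of 0.05 under the 4 alternatives that gave a p, and many turned in sign. The values on single scan days and without healthy dog 5 have no p. In AD dogs PIAS2 went to 0.201 with normexp and loess, 0.0092 in the dog's channel alone, 0.196 with the mean of all probes and 0.772 on scan day 5. PIAS4 went to 0.246 with normexp and loess and 0.205 on scan day 4. With the mean of all probes SUMO2 went to -0.548, SUMO3 to -0.201, SAE1 to 0.409 and UBA2 to -0.475. SUMO3 was at -0.015 with normexp and loess, UBA2 at -0.041 with slide means removed, and SAE1 at 0.0247 on scan day 5. In healthy dogs PIAS2 went to 0.234 with normexp and loess and 0.176 in the dog's channel alone, and to -0.724 without healthy dog 5, where SUMO2 was at -0.276. PIAS4 went to -0.22 with normexp and loess, -0.031 with the mean of all probes, -0.0013 with slide means removed and -0.035 without that dog. UBA2 went to 0.494 with the mean of all probes and 0.00025 without that dog. In AD dogs the brightest PIAS1 probe and A_11_P000004741 went to -0.115 in the dog's channel alone. The causes of these turns were not tested. The centered reference channel, the values within scan days, the correlations without healthy dog 5, the dog's channel for probe relations and the difference between PIAS1 probes were chosen after seeing the data. The share of probes with a dog signal well above background fell to 51.7% on AD arrays, and its part in the precision was not tested.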
